A study of Homo sapiens with 12 samples.

Results

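The comparison described here is that of p16-expressing cells given Torin2 with p16-expressing cells given the solvent DMSO. It takes 6 of the 12 libraries of the series, 3 biological replicates of each group chosen by their labels, and covers all 14504 genes with enough counts to be tested. The cells were MCF10-A, a line of human breast epithelial cells that is established in culture and does not form tumours. Both groups carried a doxycycline-inducible fusion of p16 with the yellow fluorescent protein mVenus, and both received 50 ng/ml doxycycline from 20 hours after 150000 cells were seeded per well. Torin2 at 100 nM, or DMSO, was added 24 hours later, with medium changes every 48 hours and collection at day 5, so every group compared here had been given doxycycline. Whether the lines were clones or pools is not given in the sources used here. The remaining libraries were from cells given doxycycline and DMSO in the same way that expressed mVenus alone (3) or mVenus fused to p21 (3). Levels in the mVenus group are given beside the others as a reference; the comparisons with p16 and with mVenus share the Torin2 libraries, so each is given by its own values.

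Torin2 is an ATP-competitive inhibitor of the kinase mTOR, and whether the changes reported here pass through mTOR was not tested. In a complex with Raptor, mTOR promotes protein, lipid and nucleotide synthesis and restrains autophagy and lysosome biogenesis, and in a complex with Rictor it phosphorylates AKT and SGK kinases. Messenger RNAs that begin with a terminal oligopyrimidine tract (a cytidine at the first position followed by a run of pyrimidines), among them those of ribosomal proteins, are the best known translational targets of the pathway. The protein p16, encoded by CDKN2A, inhibits the cyclin D-dependent kinases CDK4 and CDK6 and holds cells before DNA replication, and it is used to bring cells into senescence. Senescent cells keep mTOR activity, grow in size, enlarge their lysosomes and secrete inflammatory factors.

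The 6 libraries held 15287580 to 16607565 assigned counts, and all 12 held 13168749 to 18321114. On log2 CPM the 4 groups lay apart on the first principal components (38.1% and 32.7% of the variance), and the 3 libraries of each group lay together. Cytosolic ribosomal protein genes took 3.51 to 3.64% of counts in the p16 libraries and 6.54 to 6.59% with Torin2, and mitochondrially encoded genes 6.33 to 6.91% and 5.66 to 6.71%. No counts were assigned to CDKN2A in any of the 12 libraries, although both p16 groups carried the induced fusion. Whether its reads were lost before or in counting was not tested. The absence therefore sets no upper limit on its RNA level, and the counts give no check on the transgene. Levels are in CPM, the usual abbreviation for counts scaled to a common library size. Fold changes are log2 values ± SE of p16 with Torin2 over p16, and a single value without a unit given for a gene is its log2 fold change. The verbs rose and fell are kept for genes under 0.05 in the edgeR quasi-likelihood test, with p-values adjusted by the Benjamini-Hochberg method over the whole table. Values of 3 libraries are listed in the order of replicates 1 to 3.

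Most genes tested differed between p16 cells with and without Torin2. Of 14504 genes, 8608 (59.3%) passed the test, 4400 higher (30.3%) and 4208 lower (29.0%). Changes of 2-fold or more were found for 682 genes in the upward direction (4.70%) and for 934 in the downward direction (6.44%). The replicates of the groups did not overlap for 8995 genes (62.0%). The median log2 fold change of all genes was 0.02, with quartiles of -0.30 and 0.34. A count of called members in a gene list is therefore to be read against these shares. In bulk RNA, a change in the number of cells in a given state and a change in the RNA per cell cannot be told apart.

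**Figure D1:**
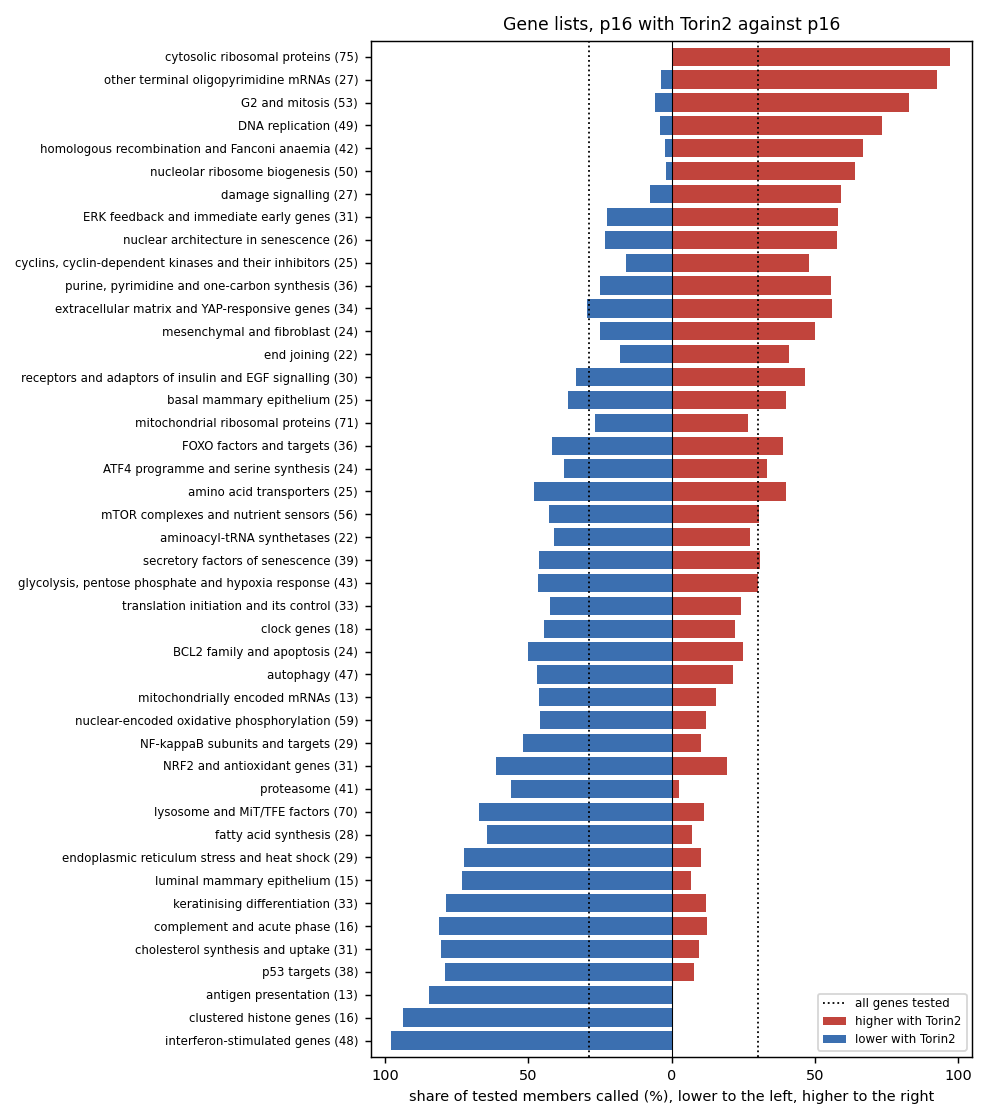
Share of tested members of each gene list that were higher (right, red) or lower (left, blue) with Torin2 than with DMSO in p16 cells, in % of the members tested (number in brackets), for lists with 10 or more tested members. The dotted lines mark the shares over all 14504 genes, 30.3% higher and 29.0% lower. Ribosomal protein genes stand at the top with 73 of 75 higher and interferon-stimulated genes at the bottom with 47 of 48 lower.

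Genes of the translation apparatus whose messages carry a terminal oligopyrimidine start rose nearly throughout. The starts of 5 of them, from 10 bases before the first transcribed base to base 20 of the transcript, are printed in the direction of transcription with the pyrimidine tract at the start in capitals, because this tract defines the class (RefSeq, GRCh38.p14).
RPS6, chr9:19380217-19380246, minus strand: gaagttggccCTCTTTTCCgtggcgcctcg
RPS19, chr19:41860245-41860274, plus strand: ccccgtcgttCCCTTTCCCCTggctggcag
EEF1A1, chr6:73521013-73521042, minus strand: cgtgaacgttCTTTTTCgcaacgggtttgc
EEF2, chr19:3985444-3985473, minus strand: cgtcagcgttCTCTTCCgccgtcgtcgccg
TPT1, chr13:45341164-45341193, minus strand: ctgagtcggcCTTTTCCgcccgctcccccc

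The tract ran over 9 bases in RPS6, 11 in RPS19 and 7 in EEF1A1, EEF2 and TPT1. RPL3 was looked up as well, and no start of this form was found for it among the RefSeq entries. A start of C followed by at least 4 pyrimidines (C or T) was found at a RefSeq start of 44 of the 60 tested ribosomal protein genes with an entry (73.3%) and of 14 of the 19 other genes listed as terminal oligopyrimidine mRNAs (73.7%). Among all 35116 starts in the table it occurred in 4.07%, and 7.22% of the 10044 tested genes with an entry had such a start.

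Of the 75 tested cytosolic ribosomal protein genes, 73 rose and 0 fell, with a median log2 fold change of 0.78 beside 0.02 for all genes. RPL17 (-0.13) and RPL36A (0.44) did not pass the test. RPS6 (chromosome 9, 19375715 to 19380254, GRCh38), the small-subunit protein phosphorylated downstream of mTOR, stood at 774, 821 and 767 CPM in the p16 libraries and at 1778, 1753 and 1769 CPM with Torin2. Every Torin2 library was above every p16 library (log2 change 1.17 ± 0.04, adjusted p = 5.64e-16). RPL3, of the peptidyl transferase centre, went from 1235 ± 49.8 to 2847 ± 48.1 CPM (SD, n = 3; log2 change 1.20 ± 0.04, adjusted p = 2.33e-16). RPS19, which has the longest tract of those printed, gave a smaller value, from 706, 659 and 634 to 827, 891 and 918 CPM (log2 change 0.40 ± 0.05, adjusted p = 4.13e-07). The largest value of the list, 1.26 for RPL10, is uncertain, since RPL10 shares 55.5% of its exonic bases with DNASE1L1 and strand was not used in counting. Many genes of this list have near-identical pseudogenes, and counting without multi-mapping options may have left out reads that fit both.

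Elongation factors and other messages of the same class rose as well, 25 of 27 with a median of 0.92. EEF1A1 (chromosome 6, 73515750 to 73523797), which delivers aminoacyl-tRNA to the ribosome, was at 4304, 4284 and 4242 CPM with DMSO and at 8954, 9011 and 8830.2 CPM with Torin2. This is a 2.09-fold difference with no overlap (log2 change 1.06 ± 0.03, adjusted p = 9.60e-18). EEF2, the translocase of elongation, went from 3573, 3498 and 3242 to 6979, 7279 and 7271 CPM (log2 change 1.06 ± 0.04, adjusted p = 1.76e-15). The noncoding host gene of small nucleolar RNAs GAS5 had the largest value of the list, from 136, 132 and 129 to 455, 468 and 473 CPM (log2 change 1.82 ± 0.04, adjusted p = 1.07e-18). Its mean in mVenus cells was 53.1 ± 2.79 CPM, so the p16 cells given Torin2 also lay above the cells expressing mVenus alone (log2 change 3.13 ± 0.04, adjusted p = 8.35e-22). The RNA-binding protein gene HNRNPA1 rose by 1.38 and the chaperone-like TPT1 by 0.85. EEF1D did not pass the test (0.59), and TMA7 fell (-0.56) but shares 53.2% of its exonic bases with another gene.

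The same start can be looked up in genes outside these lists. Of 667 other tested genes with a RefSeq start of this form, 304 rose (45.6%) and 154 fell (23.1%), with a median log2 fold change of 0.15. Of the 9298 other genes without it, 2819 rose (30.3%) and 2966 fell (31.9%), with a median of 0.00. Within the ribosomal protein list the members with such a start (43 of 44 rose, median 0.76) and those without (15 of 16 rose, median 0.74) had close values. These counts describe the windows in the table and are not a test.

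Other genes of protein synthesis gave more divided counts. Among nucleolar ribosome biogenesis factors 32 of 50 rose and 1 fell, but the median was 0.17. NOB1, the nuclease that finishes small-subunit RNA, rose from 50.5, 50.3 and 46.5 to 111, 109 and 107 CPM (log2 change 1.15 ± 0.05, adjusted p = 3.09e-14), and TCOF1, treacle of ribosomal RNA transcription, by 0.85. FBL has the farthest point in the plot of protein synthesis genes (3.24), at low levels of 0.428 and 4.17 CPM. Whether reads of FBL were lost in counting was not tested, so its value is uncertain. Of 33 initiation factors and their regulators, 8 rose (24.2%) and 14 fell (42.4%). EIF4EBP1, whose product represses cap-dependent initiation until mTOR phosphorylates it, rose from 9.85, 10.7 and 10.0 to 19.9, 16.7 and 19.1 CPM (log2 change 0.86 ± 0.08, adjusted p = 1.93e-08). In mVenus cells it was at 17.2 ± 0.687 CPM, and the difference of the Torin2 group from it did not pass the test (log2 change 0.11 ± 0.07, adjusted p = 0.195). MKNK2, which encodes a kinase of the initiation factor eIF4E, fell by 0.74, from 492 ± 25.6 to 295 ± 12.1 CPM. Mitochondrial ribosomal protein genes were called 19 times higher and 19 times lower among 71 (26.8% each). These shares are close to those over all genes, 30.3% higher and 29.0% lower. MRPL23 rose by 0.90, and MRPL36 fell by 0.56. The lowest value of the list was -0.75 for MRPS18C, which is uncertain because 40.2% of its exonic bases are shared with another gene.

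**Figure D2:**
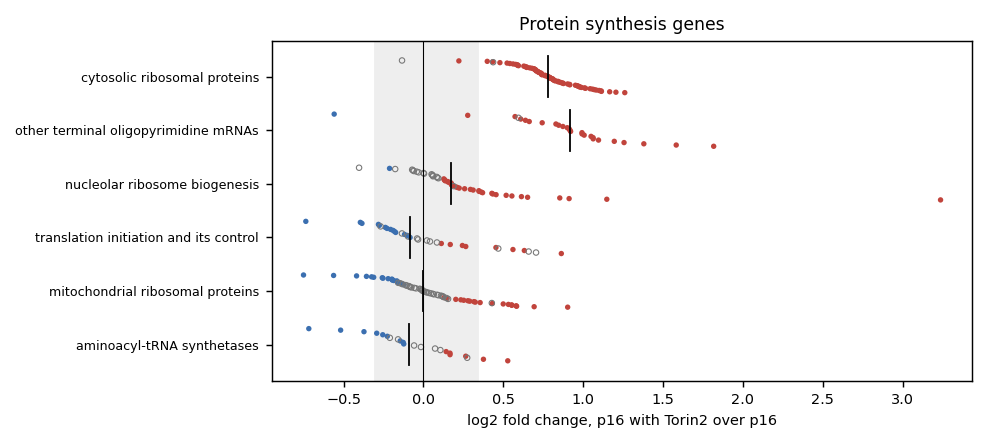
log2 fold changes of p16 with Torin2 over p16 for each tested member of 6 lists of protein synthesis genes, each point a gene (red, higher; blue, lower; open, not called), with the list's median as a black line. The grey band spans the quartiles of all genes tested, -0.30 to 0.34, and nearly all ribosomal protein genes lie to its right.

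Components of the mTOR pathway itself moved in both directions. Of 56 tested genes of the complexes, their nutrient sensors and the PI3K and AKT branch, 17 rose (30.4%) and 24 fell (42.9%). Over all genes tested 30.3% rose and 29.0% fell, so the share that rose was close to that of all genes. MTOR (chromosome 1, 11106535 to 11262507) fell from 203, 204 and 182 to 155, 162 and 152 CPM (log2 change -0.33 ± 0.04, adjusted p = 2.21e-06), while RICTOR, the defining subunit of the second complex, rose from 81.6, 86.3 and 100.2 to 132, 127 and 119 CPM (log2 change 0.50 ± 0.07, adjusted p = 3.57e-06). Neither pair of groups overlapped. RPTOR, the gene of Raptor, gave 90.7, 85.2 and 81.6 and 80.7, 84.4 and 88.1 CPM, which overlap (log2 change -0.03 ± 0.05, adjusted p = 0.686). DEPTOR, an inhibitor of the kinase, rose from 2.55 to 3.80 CPM (log2 change 0.58 ± 0.19, adjusted p = 0.0118), and this call was lost without p16 replicate 1 (0.47) or without Torin2 replicate 1 (0.44) and by the DESeq2 Wald test (0.56). Other genes whose products restrain the pathway moved in both directions. SESN3, a sestrin, fell from 21.4, 23.1 and 25.8 to 5.08, 4.40 and 4.85 CPM (log2 change -2.29 ± 0.10, adjusted p = 5.70e-14), and SESN1 fell by 1.10. NPRL3, of the complex that inhibits the Rag GTPases, rose by 0.52. DDIT4, an inducer of the TSC complex, fell (-1.39), with 41.2% of its exonic bases shared with an antisense gene. PIK3R3, a regulatory subunit of PI3K, showed the largest fall of the list, from 60.7, 65.1 and 61.0 to 7.10, 7.76 and 6.49 CPM (log2 change -3.13 ± 0.07, adjusted p = 1.77e-18). The Rag GTPase gene RRAGD rose by 1.39.

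Receptors and adaptors upstream of the pathway changed in both directions. INSR, the insulin receptor, rose from 22.0, 22.5 and 21.9 to 54.0, 58.6 and 54.6 CPM (log2 change 1.33 ± 0.06, adjusted p = 1.55e-13). Its adaptor IRS2 rose from 54.2, 49.7 and 51.5 to 135, 142 and 136 CPM (log2 change 1.41 ± 0.05, adjusted p = 5.78e-16). All Torin2 libraries lay above all p16 libraries for both genes, and IGF1R (0.53), IRS1 (0.76) and EGFR (1.07) rose too. ERBB3, the kinase-poor partner of the EGF receptor family, fell from 85.1, 85.8 and 85.5 to 45.2, 47.8 and 49.1 CPM (log2 change -0.85 ± 0.05, adjusted p = 5.32e-12), beside 44.8 ± 2.31 CPM in mVenus cells. EPGN, an EGF receptor ligand, fell by 2.58 and the IGF-binding protein gene IGFBP2 fell by 1.93, whereas IGFBP6 rose by 2.17. In all, 14 of 30 rose (46.7%, beside 30.3% of all genes) and 10 fell (33.3%, beside 29.0%).

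FOXO factors are kept out of the nucleus by AKT, and the listed FOXO factors and targets did not move as a block. Of 36 tested, 14 rose (38.9%, beside 30.3% of all genes) and 15 fell (41.7%, beside 29.0%). The 2 members that rose by 2-fold or more were IRS2 (1.41) and INSR (1.33), given above, and 5 fell by 2-fold or more. TXNIP, an inhibitor of glucose uptake, rose from 1546 ± 21.7 to 2164 ± 28.1 CPM (log2 change 0.49 ± 0.03, adjusted p = 4.04e-11), and FOXO1 rose by 0.68. The death ligand TNFSF10 fell from 22.1, 20.7 and 25.8 to 1.89, 1.68 and 2.03 CPM (log2 change -3.61 ± 0.15, adjusted p = 5.11e-14), and FOXO4 fell by 1.33.

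Most lipid synthesis genes fell with Torin2. Sterol synthesis and uptake are driven by the transcription factor SREBP2 (gene SREBF2) and fatty acid synthesis mainly by SREBP1 (gene SREBF1), both of which mTOR is known to promote. Of 31 cholesterol genes, 25 fell and 3 rose, with a median of -1.25. HMGCS1 (chromosome 5, 43289395 to 43313512), an early enzyme of the mevalonate route, was at 107, 119 and 104 CPM with DMSO and 23.1, 24.6 and 22.0 CPM with Torin2. The Torin2 libraries lay far below the p16 libraries (log2 change -2.24 ± 0.06, adjusted p = 4.16e-17) and below mVenus, at 102 ± 4.05 CPM (log2 change -2.14 ± 0.06, adjusted p = 4.64e-17). DHCR7, which makes cholesterol from its last precursor, fell from 99.4, 100.0 and 89.9 to 18.4, 18.1 and 19.3 CPM (log2 change -2.37 ± 0.06, adjusted p = 2.05e-17). INSIG1, a feedback inhibitor induced by SREBP, fell by 2.26. ABCG1, a cholesterol exporter, was among the 3 that rose (0.59), with PMVK (0.18) and INSIG2 (0.22). FDFT1 (-0.20) was not called. SREBF2 itself went from 431, 426 and 395 to 219.7, 232 and 225 CPM (log2 change -0.89 ± 0.04, adjusted p = 6.17e-14).

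Fatty acid synthesis genes were called less uniformly, with 18 of 28 lower, 2 higher and a median of -0.54. FASN, fatty acid synthase (chromosome 17, 82078333 to 82098332), fell from 1762, 1798 and 1613 to 712, 775 and 774 CPM (log2 change -1.19 ± 0.04, adjusted p = 5.65e-15). In mVenus cells it was at 722 ± 31.9 CPM, and the Torin2 group did not differ from that by the test (log2 change 0.06 ± 0.04, adjusted p = 0.224). SCD, the stearoyl desaturase, fell from 633, 676 and 647 to 98.6, 94.2 and 96.8 CPM (log2 change -2.76 ± 0.04, adjusted p = 1.38e-20), below the 329 ± 2.60 CPM of mVenus cells (log2 change -1.77 ± 0.04, adjusted p = 1.58e-18). FADS2, a desaturase of polyunsaturated fatty acids, showed the largest fall of the list, from 36.9, 32.4 and 31.5 to 2.61, 2.0 and 1.90 CPM (log2 change -3.95 ± 0.11, adjusted p = 9.01e-17), while its neighbour FADS1 had a value of 0.24 that did not pass the test. ACSL5, an acyl-CoA synthetase, fell by 3.54. ACACA, acetyl-CoA carboxylase, did not pass the test (-0.04). SREBF1 fell from 175, 173 and 153 to 80.4, 89.0 and 91.3 CPM (log2 change -0.94 ± 0.06, adjusted p = 6.03e-11).

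**Figure D3:**
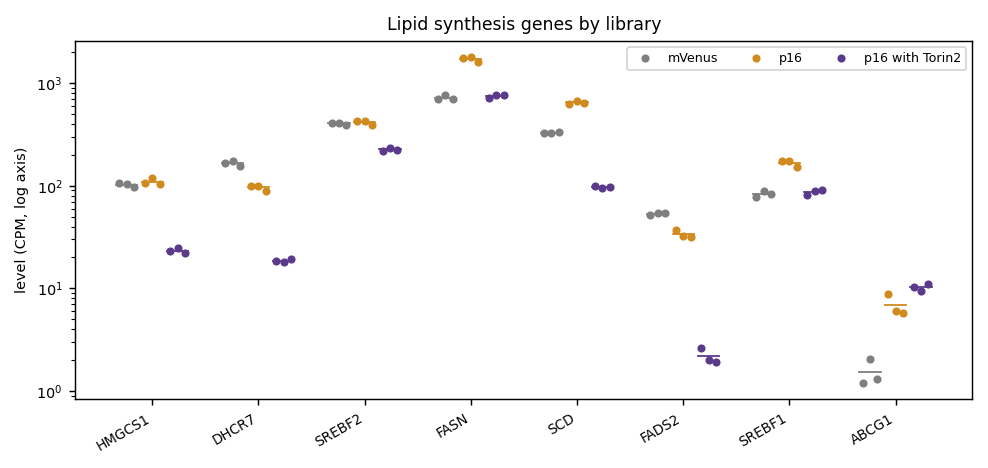
Levels of lipid synthesis genes in CPM (log axis) in each library of mVenus (grey), p16 (orange) and p16 with Torin2 (purple); points are libraries and bars the means of 3. For all genes but ABCG1, which is higher, the 3 Torin2 libraries lie below the 3 p16 libraries, and HMGCS1, DHCR7, SREBF2, SCD and FADS2 also lie below mVenus.

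Lysosomal genes, which mTOR is known to restrain through the factors TFEB, TFE3 and MITF, were mostly lower with Torin2. Of 70 tested, 47 fell and 8 rose (median -0.42). TFEB gave 11.4, 11.4 and 9.28 and 9.45, 12.1 and 10.0 CPM, which overlap (log2 change -0.02 ± 0.12, adjusted p = 0.879). TFE3 fell by 0.49 and MITF fell by 0.46. SQSTM1, the cargo receptor p62 of autophagy, also missed the threshold, at 0.998, 0.198 and 0.271 and 0.521, 0.129 and 0.459 CPM (log2 change -0.42 ± 0.56, adjusted p = 0.535). At such low levels the counts cannot tell whether its RNA changed, and whether reads were lost in counting was not tested. GLB1, lysosomal beta-galactosidase and the enzyme behind the staining used for senescent cells, fell from 102, 103 and 92.4 to 55.4, 57.1 and 59.5 CPM (log2 change -0.79 ± 0.05, adjusted p = 1.41e-11). That level is below mVenus (77.7 ± 0.617 CPM; log2 change -0.44 ± 0.05, adjusted p = 9.89e-08). LAMP1, the main lysosomal membrane glycoprotein gene, fell by 0.72 and the sulfatase ARSA fell by 1.19. The largest falls were of LAMP3 (-4.05) and the cathepsin CTSS (-3.44), and the largest rises of the cathepsin CTSH (0.72) and the glucuronidase GUSB (0.56).

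Autophagy genes were called lower more often than higher, 22 (46.8%) against 10 (21.3%) of 47, beside 29.0% and 30.3% of all genes. TP53INP2, a nuclear scaffold for autophagosome formation, fell from 82.2, 82.5 and 77.5 to 10.3, 12.6 and 11.8 CPM (log2 change -2.80 ± 0.06, adjusted p = 2.44e-18). RB1CC1, a subunit of the ULK kinase complex that starts autophagy, rose from 87.2, 96.4 and 101 to 161, 149.9 and 153 CPM (log2 change 0.70 ± 0.05, adjusted p = 7.19e-11), as did ULK2 (0.63), while WIPI1, an early autophagosome protein, fell by 0.84. Proteasome genes gave 23 falls and 1 rise among 41. NFE2L1, the factor that induces proteasome genes, fell from 1186 ± 38.4 to 754 ± 8.70 CPM (log2 change -0.65 ± 0.03, adjusted p = 3.63e-13). The activator subunit gene PSME2 had the largest value (-3.39) on levels of 3.55, 3.23 and 18.2 and 0.847, 1.42 and 0.0656 CPM, and single libraries decide its size. Without p16 replicate 3 it was -2.11 and without Torin2 replicate 2 it was -4.15.

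Amino acid and nucleotide supply genes did not share a direction. ATF4, the factor of amino acid stress, rose from 172, 164 and 163 to 239, 246 and 248 CPM (log2 change 0.56 ± 0.04, adjusted p = 4.49e-11). Of 24 tested members of its programme, 8 rose (33.3%, beside 30.3% of all genes) and 9 fell (37.5%, beside 29.0%). The serine synthesis enzymes divided: PHGDH rose by 1.44, and PSAT1 fell from 36.4, 37.5 and 35.1 to 23.1, 22.0 and 25.3 CPM (log2 change -0.63 ± 0.06, adjusted p = 3.80e-08). PPP1R15A, which reverses the block of translation in stress, rose by 1.39. The peptide transporter SLC15A2 fell from 22.6, 23.9 and 21.7 to 0.586, 0.517 and 0.393 CPM (log2 change -5.49 ± 0.18, adjusted p = 5.64e-16), and SLC6A14, a broad amino acid transporter, fell by 4.07. SLC6A15, a transporter of branched-chain amino acids, rose from 21.2, 23.4 and 23.0 to 104, 94.0 and 95.7 CPM (log2 change 2.12 ± 0.06, adjusted p = 8.35e-17), and SLC7A5, the large neutral amino acid exchanger, rose by 0.47. Among 25 transporters 10 rose (40%) and 12 fell (48%), and among 22 tRNA synthetases 6 rose (27.3%) and 9 fell (40.9%). WARS, the tryptophan enzyme that interferon also induces, fell by 0.72, and QARS, the glutamine enzyme, rose by 0.53.

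Nucleotide synthesis genes rose in 20 of 36 cases and fell in 9. CAD, the enzyme of the first steps of pyrimidine synthesis and a target of mTOR signalling, rose from 83.6, 80.0 and 77.8 to 150.1, 163 and 158 CPM (log2 change 0.97 ± 0.04, adjusted p = 8.59e-14). IMPDH2, of guanine nucleotide synthesis, rose from 244, 240.4 and 230.2 to 451, 474 and 476 CPM (log2 change 0.97 ± 0.04, adjusted p = 5.21e-15). Glycolysis, pentose phosphate and hypoxia genes were called 13 times higher (30.2%) and 20 times lower (46.5%) among 43. The shares over all genes were 30.3% and 29.0%. LDHA, lactate dehydrogenase, fell from 2143, 2165 and 2237 to 1301, 1281 and 1264 CPM (log2 change -0.77 ± 0.03, adjusted p = 3.31e-14), beside 1278 ± 47.9 CPM in mVenus. PGD, of the pentose phosphate route, fell by 0.76. The glycolytic enzyme PFKM rose by 0.70. Nuclear genes of oxidative phosphorylation fell in 27 and rose in 7 of 59 cases (median -0.10). Of 13 mitochondrially encoded messages 6 fell and 2 rose, MT-ND6, a subunit of respiratory complex I, from 1129, 1173 and 1222 to 745, 797 and 914 CPM (log2 change -0.52 ± 0.06, adjusted p = 1.44e-07).

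Cell cycle genes, which are low in p16-arrested cells, were mostly higher with Torin2. Promoters of mitotic genes are known for the cell cycle homology region, bound by the DREAM and MuvB complexes, and those of replication genes for E2F sites. The 100 bases before the start of 6 such genes are printed (RefSeq, GRCh38.p14), as their promoters hold the letters searched and their genes moved differently. Capitals mark TTTGAA in CCNB2, CDK1 and PLK1, and TTCCCGCC in CDT1, PCNA and MCM3, on either strand. For CDK1 and PCNA, which have several starts in the table, the first start with a match is shown.
CCNB2, chr15:59105046-59105145, plus strand: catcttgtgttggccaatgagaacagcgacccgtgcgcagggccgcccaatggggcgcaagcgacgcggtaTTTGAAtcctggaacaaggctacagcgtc
CDK1, chr10:60778378-60778477, plus strand: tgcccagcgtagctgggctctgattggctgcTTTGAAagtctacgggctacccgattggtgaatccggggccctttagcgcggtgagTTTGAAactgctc
PLK1, chr16:23678789-23678888, plus strand: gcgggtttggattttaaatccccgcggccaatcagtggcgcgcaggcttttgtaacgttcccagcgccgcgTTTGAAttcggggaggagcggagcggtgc
CDT1, chr16:88803689-88803788, plus strand: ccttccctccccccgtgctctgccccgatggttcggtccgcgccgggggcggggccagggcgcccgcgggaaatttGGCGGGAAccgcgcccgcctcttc
PCNA, chr20:5126623-5126722, minus strand: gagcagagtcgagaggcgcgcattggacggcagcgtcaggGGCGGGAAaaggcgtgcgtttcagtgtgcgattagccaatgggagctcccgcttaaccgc
MCM3, chr6:52284743-52284842, minus strand: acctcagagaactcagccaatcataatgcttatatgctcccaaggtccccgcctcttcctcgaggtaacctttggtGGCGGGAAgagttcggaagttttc

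In windows from 250 bases before to 50 bases after the start, TTTGAA occurred in 28 of the 43 G2 and mitosis genes with an entry (65.1%), in 13.9% of all tested genes with an entry and in 15.2% of all windows. Of the 28 members with it 24 rose and 1 fell, and of the 15 without it 13 rose, with medians of 1.20 and 1.02. Outside the list, 431 of 1366 genes with TTTGAA rose (31.6%) and 2731 of 8635 without it (31.6%). TTCCCGCC occurred in 13 of 42 replication genes with an entry (31.0%), in 6.28% of tested genes and in 3.16% of windows. Of those 13 members 10 rose, as did 21 of the 29 without it. The letters describe these windows and show no binding.

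Of 53 tested genes of G2 and mitosis, 44 rose and 3 fell (median 1.02). MKI67 (chromosome 10, 128096659 to 128126385), the marker of cycling cells, was at 10.1, 10.5 and 9.69 CPM in the p16 libraries and at 52.2, 51.6 and 50.9 CPM with Torin2. The groups were far apart (log2 change 2.35 ± 0.07, adjusted p = 1.05e-16), and both were below the 331 ± 15.6 CPM of mVenus cells (log2 change -2.68 ± 0.05, adjusted p = 3.23e-20 for Torin2 against mVenus). CENPF, of the kinetochore, rose from 13.3, 15.9 and 14.6 to 71.2, 70.0 and 68.2 CPM (log2 change 2.26 ± 0.06, adjusted p = 3.12e-17). CDK1, the mitotic kinase, rose from 3.06, 3.75 and 4.94 to 15.5, 15.7 and 14.6 CPM (log2 change 1.97 ± 0.13, adjusted p = 4.55e-11), and UBE2C, of the anaphase-promoting machinery, by 2.36. CCNB2, a mitotic cyclin, rose less, from 5.55, 5.14 and 6.16 to 9.05, 8.14 and 9.25 CPM (log2 change 0.65 ± 0.11, adjusted p = 4.55e-05). PLK1, the polo-like kinase of mitotic entry, went the other way, from 18.6, 21.5 and 19.2 to 12.2, 14.7 and 14.8 CPM, with no overlap (log2 change -0.51 ± 0.08, adjusted p = 1.99e-05). AURKA, its activating kinase, gave -0.28 (adjusted p = 0.0163), a call lost without p16 replicate 2 or without Torin2 replicate 2, and PBK gave -0.34. These were the 3 members that fell.

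Replication genes rose in 36 of 49 cases and fell in 2 (median 0.74). CDT1 (chromosome 16, 88803213 to 88809258), which loads the replicative helicase onto origins, rose from 1.75, 2.24 and 1.69 to 13.2, 14.0 and 15.8 CPM (log2 change 2.92 ± 0.14, adjusted p = 2.99e-13). This was 7.56-fold higher than in p16 and came within 2-fold of mVenus, at 27.4 ± 1.32 CPM. MCM3, a helicase subunit, rose from 54.4, 52.2 and 49.3 to 64.7, 72.1 and 72.6 CPM (log2 change 0.42 ± 0.05, adjusted p = 9.67e-07). PCNA, the sliding clamp, gave 27.6, 28.2 and 32.6 and 33.5, 34.4 and 30.2 CPM, which overlap (log2 change 0.15 ± 0.07, adjusted p = 0.0662). RRM2, of deoxynucleotide synthesis, rose by 1.58. The call of ORC6, one of the 2 lower members (-0.32), was lost without p16 replicate 2 or 3, without Torin2 replicate 1 or 2, and by the DESeq2 Wald test. The other was POLA2 (-0.48), of the primase complex.

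Among regulators of the arrest, CDKN1A, the gene of p21, fell from 588, 587 and 535 to 241, 274 and 263 CPM (log2 change -1.14 ± 0.04, adjusted p = 1.39e-14), below mVenus at 712 ± 13 CPM (log2 change -1.46 ± 0.04, adjusted p = 1.62e-16). CCND1, cyclin D1, rose from 462, 449 and 465 to 561, 575 and 563 CPM (log2 change 0.30 ± 0.03, adjusted p = 4.56e-08), and CCND3 fell by 0.88. RBL1, a pocket protein that is itself an E2F target, rose from 5.18, 5.86 and 6.30 to 17.6, 16.8 and 17.7 CPM (log2 change 1.59 ± 0.09, adjusted p = 9.42e-12). Of 25 tested genes of this list 12 rose and 4 fell. LMNB1, lamin B1, whose loss is used as a mark of senescence, rose from 4.62, 5.07 and 4.81 to 15.0, 12.5 and 14.6 CPM (log2 change 1.54 ± 0.13, adjusted p = 2.78e-09), against 54.2 ± 4.22 CPM in mVenus. HMGA2, a chromatin protein of the high mobility group, rose from 24.0, 23.9 and 28.0 to 148, 129.5 and 118 CPM (log2 change 2.38 ± 0.08, adjusted p = 1.04e-15), above its mVenus level of 17.2 ± 1.11 CPM (log2 change 2.93 ± 0.08, adjusted p = 4.88e-17). HMGB2, of another high mobility group family, rose by 1.74, whereas LMNA, lamin A/C, fell by 0.33, and the list of nuclear architecture genes gave 15 rises and 6 falls among 26.

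**Figure D4:**
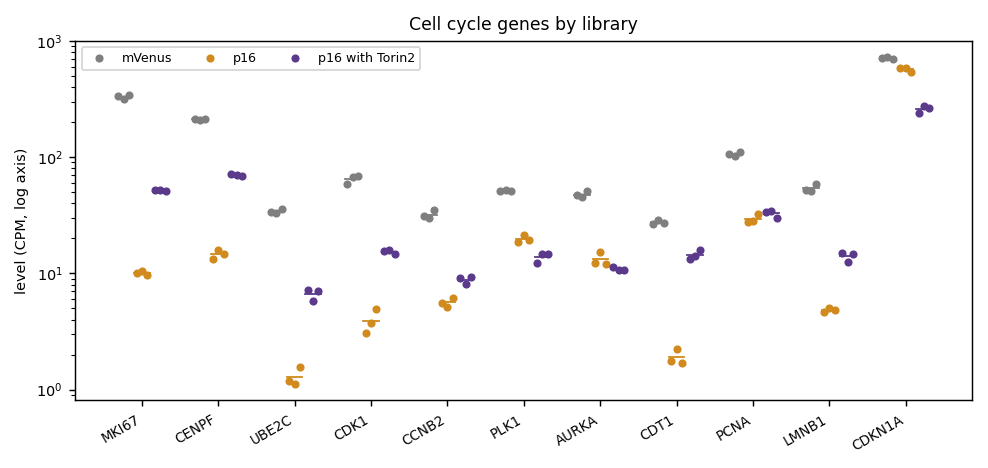
Levels of cell cycle genes in CPM (log axis) in each library of mVenus (grey), p16 (orange) and p16 with Torin2 (purple); points are libraries and bars the means of 3. MKI67, CENPF, UBE2C, CDK1, CCNB2, CDT1 and LMNB1 lie between p16 and mVenus with Torin2, PLK1 and AURKA lie below p16, the 3 PCNA values overlap those of p16, and CDKN1A lies below both.

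Homologous recombination and Fanconi anaemia genes, many of which are expressed in S phase, rose in 28 of 42 cases and fell in 1 (median 0.53). BRCA1, a mediator of recombination, rose from 11.3, 11.5 and 11 to 21, 18.2 and 18.7 CPM (log2 change 0.78 ± 0.07, adjusted p = 1.59e-08) and remained below mVenus (47.6 ± 1.04 CPM; log2 change -1.31 ± 0.06, adjusted p = 8.40e-14). Rises were also found for the nuclease gene EXO1, by 1.61, FANCG by 1.31 and FANCA by 1.22. The member that fell was SLX4, a nuclease scaffold (log2 change -0.32 ± 0.10, adjusted p = 0.0104), a call lost without Torin2 replicate 1 (-0.22). The end joining list gave 9 rises and 4 falls among 22. PRKDC, the catalytic subunit of DNA-dependent protein kinase, rose from 379, 416 and 371 to 611, 626 and 585 CPM (log2 change 0.64 ± 0.04, adjusted p = 3.03e-11), RIF1 rose by 0.80, TP53BP1 by 0.27, and the ligase LIG4 fell by 0.76. CHEK1, the checkpoint kinase downstream of ATR, rose from 13.6, 14.0 and 13.9 to 30.2, 31.9 and 31.8 CPM (log2 change 1.18 ± 0.07, adjusted p = 3.64e-12), and 16 of 27 damage signalling genes rose against 2 that fell. The values of MKI67 and CDT1 moved in the same direction as these repair genes, and the part of cell cycle position in them was not tested.

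Most listed targets of p53 fell. Of 38 tested, 30 were lower and 3 higher (median -0.51). MDM2, a ubiquitin ligase and p53 target, fell from 201, 209 and 244 to 149, 135 and 132 CPM (log2 change -0.65 ± 0.06, adjusted p = 1.67e-08). FAS, a death receptor, fell by 0.46, and RRM2B, the p53-induced ribonucleotide reductase subunit, fell by 0.55. The largest fall of the list was of TRIM22 (-3.15), which is also an interferon-stimulated gene. TIGAR, a regulator of glycolysis, gave -1.72, with 45.6% of its exonic bases shared with another gene. The 3 that rose were DRAM1 (0.40), AIFM2 (0.27) and ZMAT3 (0.24).

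Clustered histone genes, whose messages in cycling cells mostly end in a stem-loop in place of a poly(A) tail, were measured here in polyadenylated RNA. Of 16 tested 15 fell and 0 rose, with a median of -1.62. HIST1H2BC fell from 39.3, 39.1 and 40.6 to 6.51, 5.69 and 7.08 CPM (log2 change -2.62 ± 0.08, adjusted p = 1.90e-16), while replication genes rose. The 25 listed genes, tested or not, together took 451 to 476 CPM in the p16 libraries and 145 to 156 CPM in those with Torin2.

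Nearly all interferon-stimulated genes tested were lower with Torin2. Interferon-stimulated genes are switched on at interferon-stimulated response elements. The 150 bases before the start of 3 of them are printed because their promoters carry the element (RefSeq, GRCh38.p14), with capitals marking GAAA, any NN and GAAA in direct sequence, on either strand. Overlapping matches run together.
IFIT1, chr10:89392473-89392622, plus strand: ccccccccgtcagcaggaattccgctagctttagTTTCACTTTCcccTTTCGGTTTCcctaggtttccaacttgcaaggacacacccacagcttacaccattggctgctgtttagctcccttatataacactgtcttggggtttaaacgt
IFIT3, chr10:89327847-89327996, plus strand: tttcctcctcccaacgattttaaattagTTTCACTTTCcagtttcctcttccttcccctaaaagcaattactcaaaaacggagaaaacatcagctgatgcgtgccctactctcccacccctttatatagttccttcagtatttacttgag
ISG15, chr1:1013347-1013496, plus strand: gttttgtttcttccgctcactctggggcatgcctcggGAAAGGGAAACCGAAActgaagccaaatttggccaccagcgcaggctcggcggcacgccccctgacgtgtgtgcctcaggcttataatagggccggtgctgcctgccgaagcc

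Of the listed interferon-stimulated genes that were tested and had an entry, 25 of 36 (69.4%) held this sequence in the window from 250 bases before to 50 after a start, beside 3.96% of all tested genes with an entry and 3.57% of all windows. The 25 members with it and the 11 without it all fell, with medians of -2.50 and -2.61. Outside the list, 144 of 373 tested genes with these letters fell (38.6%) and 91 rose (24.4%), while 2941 of 9635 without them fell (30.5%) and 3108 rose (32.3%).

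Of 48 tested interferon-stimulated genes 47 fell and 0 rose, with a median of -2.56. IFIT1 (chromosome 10, 89392546 to 89406486), which binds viral RNA, was at 838, 788 and 1046 CPM in the p16 libraries and at 41.2, 42.0 and 45.8 CPM with Torin2. The fall was 20.7-fold (log2 change -4.37 ± 0.14, adjusted p = 4.59e-16). In mVenus cells IFIT1 was at 46.1 ± 13.1 CPM, and the Torin2 group did not differ from that by the test (log2 change -0.10 ± 0.16, adjusted p = 0.594). IFIT3 fell from 449, 394 and 539.8 to 33.0, 34.5 and 40.3 CPM (log2 change -3.68 ± 0.12, adjusted p = 1.24e-15), and ISG15, the ubiquitin-like modifier, from 333, 271 and 332 to 24.1, 24.7 and 27.5 CPM (log2 change -3.62 ± 0.11, adjusted p = 4.93e-16). OAS2, a sensor of double-stranded RNA, fell from 366, 327 and 393 to 13.5, 13.6 and 15.9 CPM (log2 change -4.65 ± 0.11, adjusted p = 2.71e-18), below mVenus (34.1 ± 6.73 CPM; log2 change -1.24 ± 0.13, adjusted p = 3.56e-08). STAT2, a transcription factor of the response, fell by 1.01 and the RNA sensor gene DDX58 fell by 2.71. IRF7 was the tested member that did not pass (1.02). IFITM1 (-5.00) shares 32.5% of its exonic bases with IFITM2, so its value is uncertain.

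Antigen presentation genes fell in 11 of 13 cases and rose in 0. HLA-B, a class I heavy chain, fell from 116, 103 and 109 to 35.6, 30.1 and 33.9 CPM (log2 change -1.72 ± 0.06, adjusted p = 4.09e-15), B2M, the light chain, fell by 1.47, and NLRC5, their transactivator, fell by 1.67. HLA genes resemble each other closely, so reads that fit several of them may have been left out or misplaced, and their levels are uncertain. Complement and acute phase genes fell in 13 of 16 cases (median -1.89) and rose in 2. The protease genes C1R (-2.40) and C1S (-2.52) and the central component C3 (-2.06) fell, SAA2, serum amyloid A, fell from 268, 256 and 252 to 42.1, 44.7 and 45.0 CPM (log2 change -2.56 ± 0.04, adjusted p = 4.51e-20), and CD55, which protects cells from complement, rose by 0.45.

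Secreted factors of senescence divided. Of 39 tested, 18 fell (46.2%, beside 29.0% of all genes) and 12 rose (30.8%, close to the 30.3% of all genes). The neutrophil chemokine CXCL8 fell from 64.9, 65.4 and 71.7 to 30.2, 28.1 and 34.5 CPM (log2 change -1.12 ± 0.08, adjusted p = 2.33e-10), still above mVenus at 7.91 ± 1.11 CPM (log2 change 1.95 ± 0.11, adjusted p = 2.84e-12). CXCL1 fell by 1.42, IL32 fell by 1.57 and GDF15 fell by 0.96. CSF3, a granulocyte growth factor, rose by 2.08. Both interleukin 1 genes rose, IL1A by 0.29 and IL1B from 9.35, 6.85 and 8.26 to 15.8, 17.1 and 12.9 CPM (log2 change 0.90 ± 0.13, adjusted p = 3.57e-06). Genes of NF-kappaB subunits and targets fell in 15 and rose in 3 of 29 cases, BIRC3, an inhibitor of apoptosis, having a value of -1.07.

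Genes of epithelial state changed in both directions. Basal keratins fell: KRT14 (chromosome 17, 41582279 to 41586921) from 483, 449.9 and 467 to 31.9, 38.2 and 39.0 CPM (log2 change -3.68 ± 0.07, adjusted p = 1.45e-19), and its partner KRT5 from 4559, 4266 and 4379 to 1088, 1074 and 1095 CPM (log2 change -2.02 ± 0.03, adjusted p = 1.68e-20). In mVenus cells they were at 25.6 ± 2.41 and 1266 ± 19.6 CPM, so that KRT14 remained higher (log2 change 0.51 ± 0.08, adjusted p = 1.72e-05) and KRT5 was lower (log2 change -0.22 ± 0.03, adjusted p = 2.63e-06). Other basal genes rose. LAMB3, a chain of the laminin of the basement membrane, went from 739, 700.2 and 649.9 to 1716, 1814 and 1733 CPM (log2 change 1.33 ± 0.04, adjusted p = 3.92e-16), and TP63, the master factor of basal epithelium, from 35.0, 37.5 and 39.3 to 83.1, 80.0 and 70.8 CPM (log2 change 1.07 ± 0.06, adjusted p = 1.47e-11), above mVenus (5.18 ± 0.453 CPM, log2 change 3.92 ± 0.09, adjusted p = 1.58e-18). SNAI2, a zinc finger repressor of epithelial adhesion genes, rose by 2.32. In the basal list 10 of 25 rose (40%, beside 30.3% of all genes) and 9 fell (36%, beside 29.0%).

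Luminal genes fell in 11 of 15 cases and rose in 1. KRT8 fell from 2317, 2216 and 2149 to 472, 516 and 531 CPM (log2 change -2.14 ± 0.05, adjusted p = 2.71e-18) and the mucin MUC1 fell by 1.39, while ALDH1A3, an aldehyde dehydrogenase of luminal progenitors, rose by 0.92. Genes of keratinising differentiation fell in 26 of 33 cases (median -0.98). S100A8 and S100A9, the subunits of calprotectin, fell the most: S100A8 from 72.9, 71.5 and 65.9 to 1.11, 1.36 and 1.97 CPM (log2 change -5.56 ± 0.11, adjusted p = 3.17e-19) and S100A9 fell by 4.44. The envelope protein gene IVL fell by 3.12. SBSN, a secreted keratinocyte protein, rose by 1.70, and the crosslinking enzyme TGM1 by 1.71, at 2.62, 3.36 and 3.05 and 8.66, 10.9 and 9.97 CPM, a call lost in the DESeq2 Wald test.

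Mesenchymal genes rose in 12 of 24 cases and fell in 6. FN1, fibronectin (chromosome 2, 215360440 to 215436172), was at 63.7, 65.4 and 55.9 CPM with DMSO and at 623, 592 and 477 CPM with Torin2. That is 9.14-fold higher with no overlap (log2 change 3.19 ± 0.10, adjusted p = 2.83e-16), and still below mVenus, at 2440.4 ± 152 CPM (log2 change -2.11 ± 0.08, adjusted p = 1.15e-14). VIM, vimentin, rose from 42.8, 39.2 and 43.2 to 153, 142 and 132 CPM (log2 change 1.77 ± 0.06, adjusted p = 3.98e-16), and TAGLN, transgelin, by 1.87. CDH2, N-cadherin, did not pass the test (0.02). S100A4 (-1.51), the collagen COL6A1 (-0.95) and the crosslinker LOXL2 (-0.94) fell. Among matrix and YAP-responsive genes 19 of 34 rose and 10 fell, with TGFBI, a matrix protein induced by TGF-beta, from 263, 227 and 261 to 1388, 1375 and 1288 CPM (log2 change 2.43 ± 0.06, adjusted p = 3.38e-18) and the receptor kinase AXL by 2.16.

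The defining markers of the cell types that a culture could hold were summed in each library. The 10 basal markers together lay at 16130 to 17050 CPM in the p16 libraries and 14480 to 14890 with Torin2, the 8 luminal markers at 3341 to 3569 and 1211 to 1333, and the 6 mesenchymal markers at 127 to 135 and 639 to 805. The 5 leukocyte markers reached at most 0.0659 CPM in any of the 6 libraries, with PTPRC, CD3E and TYROBP at 0 counts in all of them. The 4 endothelial markers lay at 4.24 to 4.68 CPM and 1.88 to 2.95 CPM. The longer lists of such genes stood higher. The 14 leukocyte genes together took 114 to 128 CPM in the p16 libraries and 51.5 to 56.0 CPM in those with Torin2, with CSF1R at 88.2, 79.3 and 78.2 and 37.7, 40.7 and 36.3 CPM and CD14 at 38.5, 34.6 and 36.2 and 13.5, 14.9 and 17.0 CPM. Both fell (-1.10 and -1.27), the third tested gene of the list did not pass, and 6 members were at 0 counts in both groups. The 10 endothelial genes took 23.5 to 28.3 CPM in the p16 libraries and 8.21 to 11.1 CPM in those with Torin2, most of it from ROBO4, which fell (-1.83), as did PECAM1 (-3.18). The labelled line shows its epithelial markers in both groups, and whether cells or levels per cell changed was not tested.

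**Figure D5:**
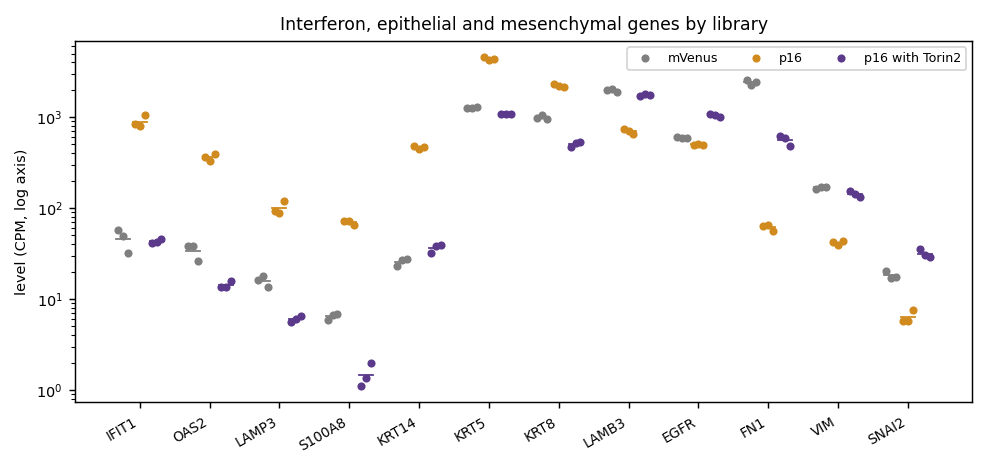
Levels of interferon, epithelial and mesenchymal genes in CPM (log axis) in each library of mVenus (grey), p16 (orange) and p16 with Torin2 (purple); points are libraries and bars the means of 3. IFIT1, OAS2, LAMP3, S100A8, KRT14, KRT5 and KRT8 are lower with Torin2 than in p16, and LAMB3, EGFR, FN1, VIM and SNAI2 are higher, without overlap of the libraries.

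Signalling and stress genes gave further groups. Feedback genes of ERK and immediate early genes rose in 18 and fell in 7 of 31 cases. EGR1, an early growth response factor, rose from 127, 127 and 128 to 317, 320.3 and 295 CPM (log2 change 1.29 ± 0.04, adjusted p = 5.59e-16), and the ETS factor ETV4 from 5.30, 5.99 and 5.01 to 15.6, 18.6 and 17.2 CPM (log2 change 1.66 ± 0.11, adjusted p = 3.34e-11). NRF2 and antioxidant genes fell in 19 of 31 and rose in 6. AKR1C3, an aldo-keto reductase, fell by 1.17, and FTL, ferritin light chain, rose by 0.86. Chaperones and endoplasmic reticulum stress genes fell in 21 of 29 cases. HSPB1, a small heat shock protein, fell from 1226, 1199 and 1274 to 652, 706 and 717 CPM (log2 change -0.83 ± 0.04, adjusted p = 2.18e-13), and CALR, calreticulin, fell by 0.73. Among 24 apoptosis genes 12 fell (50%, beside 29.0% of all genes) and 6 rose (25%, beside 30.3%). BCL2L11, the gene of BIM, rose by 0.41. Of 18 clock genes, 8 fell (44.4%) and 4 rose (22.2%). The core activator ARNTL fell by 0.70, and the repressor NR1D2 rose by 1.10.

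The largest single changes lay partly outside the lists. They were ranked among called genes without overlap whose higher group had a mean of at least 5 CPM. AKAP12, a scaffold for protein kinases A and C, had the largest rise, from 4.37, 3.95 and 5.15 to 104, 103 and 77.2 CPM (log2 change 4.40 ± 0.12, adjusted p = 7.45e-17), and its mVenus level was 128 ± 5.40 CPM. TGFB1I1, a focal adhesion adaptor, rose from 2.81, 2.04 and 1.90 to 19.5, 19.8 and 21.2 CPM (log2 change 3.15 ± 0.13, adjusted p = 2.20e-14), and VCAN, the proteoglycan versican, by 2.73. TFPI2, a protease inhibitor, rose from 1.12, 0.922 and 0.813 to 10.0, 8.98 and 6.56 CPM and had 0.0880 CPM in mVenus. The steroid dehydrogenase HSD17B2 rose by 2.92, troponin T1 (TNNT1) by 2.99 and CDCA7 by 2.60. RPSAP52 rose by 3.09, but it is a transcribed pseudogene whose span reaches over the start of HMGA2 on the opposite strand.

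Among the falls, P2RY6, a receptor for nucleotides, had 143, 138 and 118 counts in the p16 libraries and 1, 1 and 0 with Torin2. The ratio of the scaled sums was 199.9, with an exact 95% interval of 55.0 to 1656 that covers counting error only. ATP13A4, a cation transporter, fell from 10.5, 11.9 and 8.20 to 0.195, 0.0646 and 0.0656 CPM (log2 change -6.45 ± 0.35, adjusted p = 2.45e-12), and its value was -7.12 without Torin2 replicate 1. BBOX1, an enzyme of carnitine synthesis, fell from 15.0, 18.2 and 14.3 to 0.391, 0.388 and 0.393 CPM (log2 change -5.31 ± 0.19, adjusted p = 4.12e-15). IGFL1, an insulin growth factor-like gene, fell by 4.60 and the antiviral MX2 fell by 4.68. By this rule S100A8, SLC15A2, IFITM1, OAS2 and S100A9 completed the 10 largest falls, and FN1 and CDT1 the 10 largest rises.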

How the data were processed

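Polyadenylated RNA of 12 libraries in 4 groups of 3 was used, with groups taken from the sample labels. The deposited values are whole-number counts per gene, made with featureCounts 1.6.3 over GENCODE 29 exons without strand, multi-mapping or read-pair options, per the file headers. Per the submitters' processing notes, the tools also included HISAT2, Subread, FastQC 0.11.3 and DESeq2, and the build was GRCh38.p7. The fold change tables that the authors deposited were left aside. Gene positions follow GENCODE 29 (GRCh38), and promoter sequences are from RefSeq (GRCh38.p14). A RefSeq window was found for 10044 of the 14504 tested genes.

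Of 57133 genes in the files, 14504 passed edgeR's filter for low counts. All 12 libraries entered a single fit (edgeR 4.0.16 quasi-likelihood test in R 4.3.3, TMM scaling, 8 residual degrees of freedom, common biological coefficient of variation 3.94%), with Benjamini-Hochberg adjustment over all tested genes. CPM were computed with the TMM-scaled library sizes. Nothing in the labels ties the replicates to separate days, so p-values measure the spread between these samples. On simulated counts with 200 changed genes, the test recovered 36.0% of genes changed by 1.2-fold, 64.1% at 1.5-fold and 86.9% at 2-fold, with 13 calls among 14304 unchanged genes. In the data 8608 genes were called, far more than were changed in the simulation. The adjustment was therefore stricter on the simulated counts, and these shares do not give the recovery in this comparison.

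The 46 gene lists and the genes named were chosen with earlier results of these data known. Named were a set of pathway genes, the 10 largest rises and falls, and up to 3 in each direction per list, each called, without overlap of the groups and with at least 5 CPM in the higher group. Genes sharing over 30% of their exonic bases with another gene are given as uncertain. Other genes that did not pass the test, those whose sequences are printed, and ACACA, B2M, C3, CCNB2, CDK1, DDX58, FAS, FBL, FOXO1, IFIT3, IL1A, INSIG1, INSIG2, ISG15, LAMP1, MITF, NPRL3, PECAM1, PHGDH, PMVK, POLA2, RRAGD, SESN1, STAT2, TFE3, TP63, TPT1 and VIM were added after their values were seen. ASNS, one of the set genes, had too few counts to be tested. Alternatives were other scalings, no filter, DESeq2 1.42.0, the 6 compared libraries alone, a replicate block and leaving out each library. Some named genes are not reported here.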

Additional observations from a re-analysis of the deposited data

How the results depend on the processing

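Of 252 named genes called, 246 kept their call and direction under all 13 alternatives. Of the 6 that lost it under at least 1, those reported are DEPTOR, ORC6, AURKA, SLX4 and TGM1. The count of genes higher with Torin2 was 4042 to 4363 on leaving out each library and 3607 to 4786 under the other alternatives (4400 as reported). The count of genes lower was 3954 to 4174 and 3906 to 4515 (4208 as reported). Between 85.5% and 99.9% of the calls were shared with those reported, and the share of higher genes among calls ran from 47.9% (no filter) to 55.1% (upper quartile scaling). Same-numbered libraries of different groups did not deviate together (correlation of deviations -0.082 to 0.075), so the numbers were not taken as pairs. With a replicate block, 4347 genes were higher and 4158 lower, and no named gene's call changed. Without single libraries PSME2 and ATP13A4 moved by over 1.5 times, as given beside their values. With 15287580 to 16607565 counts per library, changes well under 1.5-fold in low genes may have been missed.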
